A study of Rattus norvegicus with 3 samples.

Results

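Collagen genes were read in single nuclei of rat brain as a family of 42 genes, taken from the 30560 features of the deposited tables as every symbol that starts with Col and a digit and contains the letter a. The rule used names alone and no measured value. By role the members were 4 type IV network collagens, 2 multiplexins, 11 fibrillar collagens, 6 type VI collagens, 9 fibril-associated collagens, 4 transmembrane collagens, 3 short-chain collagens and 3 others. Col4a4, Col4a5 and Col21a1 were not analysed here.

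The study asked how the brain's cells respond to an innate immune stimulus given outside the brain. LPS animals received lipopolysaccharide, a bacterial cell wall component, at 5 mg/kg, poly(I:C) animals a synthetic double-stranded RNA at 12 mg/kg, and saline animals the sham injection. All animals were female wild-type rats of the outbred strain Crl:CD(SD), 12 weeks of age, injected into the peritoneal cavity 7 hours before the brain was taken. Nuclei of 4 animals were pooled for each treatment and sequenced as 1 library with 10x Genomics 5' chemistry, so animals could not be told apart and no test between treatments was possible. Ratios below therefore compare single libraries, and their exact 95% intervals, given in brackets, cover counting error only. A count of 0 allows an expected count of up to 3 UMIs.

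Collagens are triple-helical matrix proteins. Type IV collagens form the sheet-like network of the basement membrane, which wraps brain capillaries between endothelial cells, pericytes and astrocyte endfeet; Col4a1 and Col4a2 encode the chains of its common trimer, whereas Col4a3 belongs to a separate trimer best known from kidney and lung. Fibrillar collagens such as Col1a1, Col1a2 and Col3a1 are typical of fibroblasts of the meninges and larger vessels, and several fibril-associated and transmembrane collagens are made by neurons.

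Col4a1 and Col4a2 are neighbours read in opposite directions from a shared stretch of DNA, and Col4a3 has the same arrangement with Col4a4. The promoter windows of the 3 type IV genes that the vascular results turn on are shown here, from RefSeq on build GRCr8, which is not the build of the counts (mRatBN7.2). Each runs 5' to 3' on the gene's own strand from 250 bases before to 50 bases after its start, and capitals mark the bases that also lie in the window of the partner gene.
Col4a1 (chr16:84885347-84885646, plus strand): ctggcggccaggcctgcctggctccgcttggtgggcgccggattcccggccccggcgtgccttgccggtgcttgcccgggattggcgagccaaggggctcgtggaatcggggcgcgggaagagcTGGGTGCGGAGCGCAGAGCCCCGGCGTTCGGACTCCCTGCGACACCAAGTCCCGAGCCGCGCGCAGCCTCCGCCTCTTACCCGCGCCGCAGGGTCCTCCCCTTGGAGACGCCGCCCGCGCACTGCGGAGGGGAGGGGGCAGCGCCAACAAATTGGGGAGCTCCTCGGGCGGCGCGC
Col4a2 (chr16:84885471-84885770, minus strand): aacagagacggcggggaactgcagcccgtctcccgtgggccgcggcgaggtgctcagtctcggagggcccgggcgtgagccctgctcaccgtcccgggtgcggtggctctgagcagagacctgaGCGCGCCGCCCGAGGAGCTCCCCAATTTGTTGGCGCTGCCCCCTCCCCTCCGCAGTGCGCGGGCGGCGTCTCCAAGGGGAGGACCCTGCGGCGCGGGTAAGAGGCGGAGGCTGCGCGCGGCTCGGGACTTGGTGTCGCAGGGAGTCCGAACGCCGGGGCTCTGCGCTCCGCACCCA
Col4a3 (chr9:91323740-91324039, plus strand): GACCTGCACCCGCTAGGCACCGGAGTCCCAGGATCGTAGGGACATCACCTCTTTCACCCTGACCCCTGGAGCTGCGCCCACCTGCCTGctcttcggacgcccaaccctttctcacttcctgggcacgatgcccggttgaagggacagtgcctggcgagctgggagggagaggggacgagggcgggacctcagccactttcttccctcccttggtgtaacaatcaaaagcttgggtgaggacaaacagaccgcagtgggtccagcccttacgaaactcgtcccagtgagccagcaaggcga

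The starts of Col4a1 and Col4a2 lay 77 bases apart and their windows shared 176 bases. The starts of Col4a3 and Col4a4 lay 413 bases apart and their windows shared 88 bases. On either strand, CCAAT occurred at 2 places in the Col4a1 window, at 1 in the Col4a2 window and at 0 in the Col4a3 window, and was found in 37.7% of 27457 RefSeq rat promoters of this length. GGGCGG occurred at 2 places in the Col4a1 window, at 2 in the Col4a2 window and at 1 in the Col4a3 window, and in 34.9% of promoters. For both motifs, the places in the Col4a2 window lay in the bases shared with Col4a1 and were counted in both windows. The AP-1 letters TGACTCA or TGAGTCA (4.53% of promoters), the STAT letters TTCNNNGAA (8.68%) and the interferon response core of GAAA, any 2 bases and GAAA (3.77%) were not found in these 3 windows. Windows were available for 33 of the 42 members.

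The LPS library held 11211 barcodes and 29763787 unique molecular identifiers (UMIs), the poly(I:C) library 15001 barcodes and 21340578 UMIs, and the saline library 25435 barcodes and 35532360 UMIs. The median barcode carried 2436 UMIs after LPS, 1264 after poly(I:C) and 1165 after saline. Nuclei were assigned to 14 classes by marker genes that include no collagen, and class names below stand for these marker gates, which took in 52.1% of barcodes after LPS, 29.8% after poly(I:C) and 27.2% after saline. There were 165 endothelial nuclei after LPS, 213 after poly(I:C) and 388 after saline, 30 mural nuclei after LPS, 40 after poly(I:C) and 76 after saline, and 39 fibroblast nuclei after LPS, 10 after poly(I:C) and 23 after saline. When nuclei were gated on every second marker, the markers left out were 43.9- to 81.9-fold above the whole library in endothelial nuclei, 19.3- to 98.7-fold in mural nuclei and 4.51- to 45.5-fold in fibroblast nuclei, but only 1.38- to 1.69-fold in Slc17a7 excitatory neurons. The LPS and saline libraries shared 420 barcode sequences, poly(I:C) and saline 550, and LPS and poly(I:C) 247.

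Over all barcodes, collagen transcripts made up a like part of the RNA of each library. They summed to 23184 UMIs (779 CPM) after LPS, 16249 UMIs (761 CPM) after poly(I:C) and 28709 UMIs (808 CPM) after saline, where CPM are UMIs of the gene per 1000000 UMIs, and each of the 42 members had a UMI in every library. A member was called when its CPM differed at least 2-fold with at least 10 UMIs over both libraries. Of 41 measured members, 0 were higher and 4 lower for LPS over saline, against 3.24% and 2.85% of all measured genes. Of 41 measured members, 1 was higher and 4 lower for poly(I:C) over saline, against 2.87% and 4.37% of all measured genes. These comparisons use the same saline library. Of 40 measured members, 2 were higher and 1 lower for LPS over poly(I:C), against 3.78% and 2.18% of all measured genes. Counted as UMIs per barcode, the ratios move up by 0.93 on the log2 scale for LPS over saline for every gene, and 17 members were higher and 0 lower, against 30.5% and 0.479% of all measured genes. For LPS over poly(I:C) the shift was 0.90, and 17 members were higher and 0 lower, against 41.8% and 0.552%. The ratios below are per UMI unless another scale is named. The median log2 ratio of the members was -0.08 for LPS over saline, against -0.03 over all measured genes, -0.06 against -0.09 for poly(I:C) over saline, and -0.05 against 0.06 for LPS over poly(I:C).

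**Figure D1:**
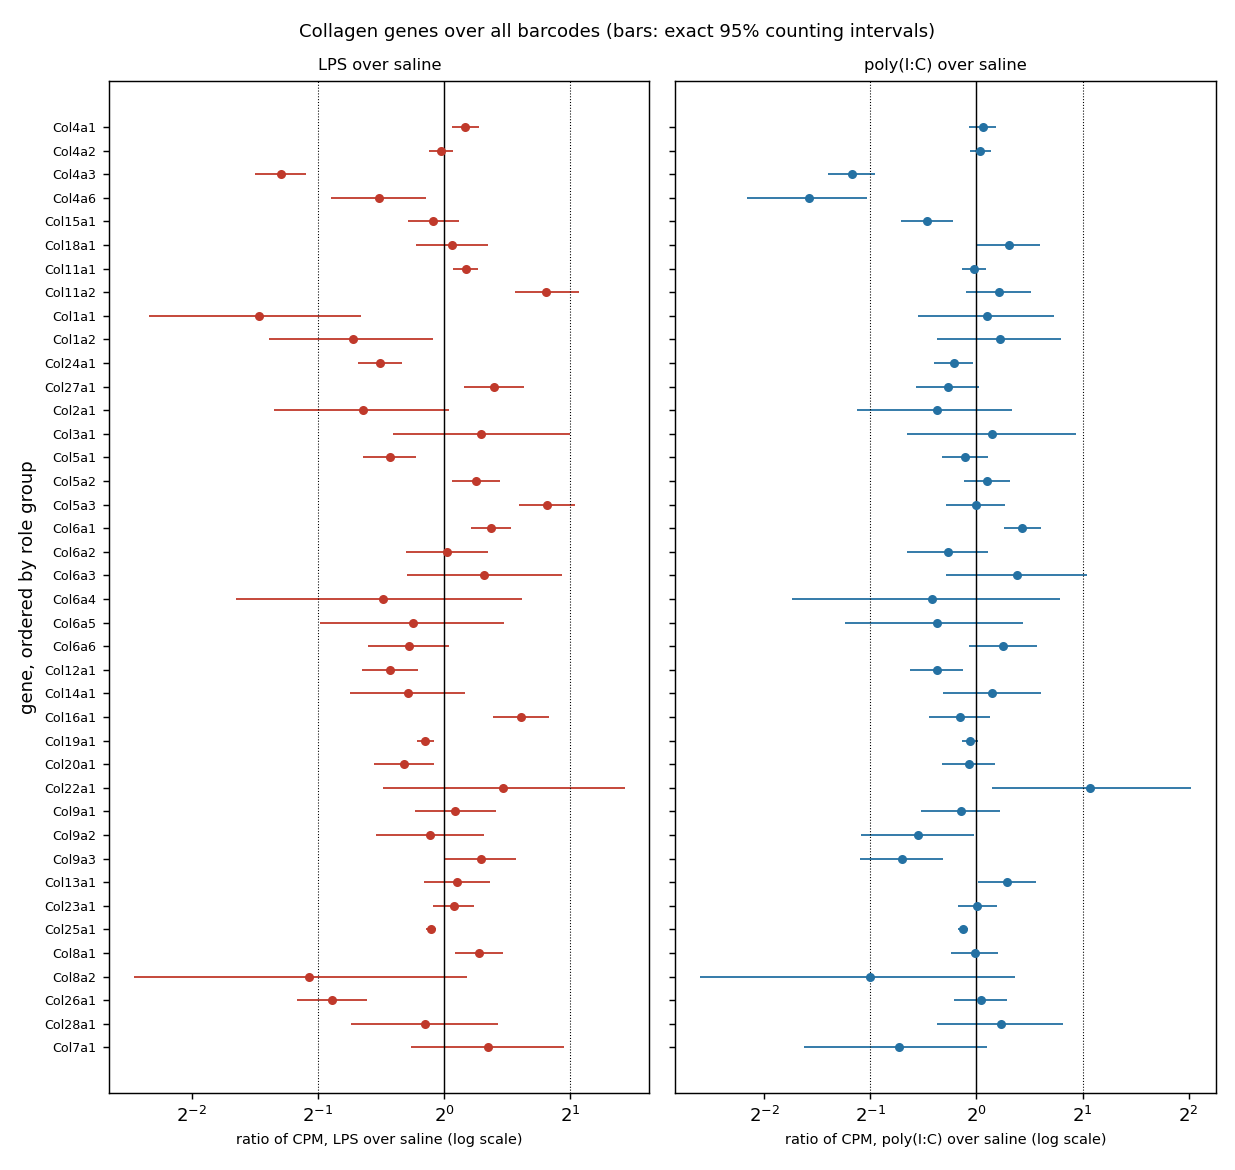
Ratio of CPM over all barcodes (log axis) for the 40 members with at least 30 UMIs, with a panel for LPS over saline and one for poly(I:C) over saline; bars are exact 95% counting intervals and dotted lines mark 2-fold. Most members lie between the dotted lines, and Col4a3 lies beyond the lower one in both panels, at 0.408 for LPS and 0.442 for poly(I:C).

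Col4a3 made up a smaller part of the RNA over all barcodes after both stimuli. It had 273 UMIs (9.17 CPM) after LPS, 212 UMIs (9.93 CPM) after poly(I:C) and 798 UMIs (22.5 CPM) after saline. Both stimulated libraries were low, with LPS over saline at 0.408 (0.355 to 0.469), poly(I:C) over saline at 0.442 (0.378 to 0.515) and LPS over poly(I:C) at 0.923 (0.769 to 1.11). Counted as UMIs per barcode, LPS over saline was 0.776, within 2-fold, and poly(I:C) over saline 0.450. In such a sum, fewer cells of a type and less RNA per cell cannot be told apart. Col4a6, a type IV chain of smooth muscle and epithelial basement membranes, had 96 UMIs (3.23 CPM) after LPS, 33 UMIs (1.55 CPM) after poly(I:C) and 164 UMIs (4.62 CPM) after saline. Poly(I:C) was the lowest library for it, at 0.335 (0.223 to 0.489) of saline, with LPS over poly(I:C) at 2.09 (1.39 to 3.20) per UMI, 3.89 as UMIs per barcode and 1.94 among barcodes with at least 500 genes and at most 5% mitochondrial UMIs. Col4a1 had 1301 UMIs (43.7 CPM) after LPS, 864 UMIs (40.5 CPM) after poly(I:C) and 1381 UMIs (38.9 CPM) after saline, and Col4a2 had 1671 UMIs (56.1 CPM) after LPS, 1249 UMIs (58.5 CPM) after poly(I:C) and 2026 UMIs (57.0 CPM) after saline. For these common chains LPS over saline was 1.12 (1.04 to 1.21) for Col4a1 and 0.985 (0.922 to 1.05) for Col4a2.

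Other called members had low counts. Col1a1, a chain of type I collagen, had 17 UMIs (0.571 CPM) after LPS, 36 UMIs (1.69 CPM) after poly(I:C) and 56 UMIs (1.58 CPM) after saline, so that LPS was the low library, at 0.362 (0.197 to 0.633) of saline and 0.339 (0.178 to 0.619) of poly(I:C). As UMIs per barcode these ratios were 0.689 and 0.632, within 2-fold. Col1a2, its partner chain, had 32 UMIs (1.08 CPM) after LPS, 44 UMIs (2.06 CPM) after poly(I:C) and 63 UMIs (1.77 CPM) after saline, with LPS over saline at 0.606 (0.383 to 0.942). Col22a1, a collagen of the muscle-tendon junction, had 22 UMIs after LPS, 24 after poly(I:C) and 19 after saline, and poly(I:C) over saline was 2.10 (1.1 to 4.06), or 1.64 with the 500-gene filter. Col7a1, which forms anchoring fibrils, had 50 UMIs after LPS, 17 after poly(I:C) and 47 after saline, and LPS over poly(I:C) was 2.11 (1.20 to 3.90) per UMI and 3.94 as UMIs per barcode. Col8a2 had 8 UMIs after LPS, 6 after poly(I:C) and 20 after saline, and Col10a1 4 UMIs after LPS, 3 after poly(I:C) and 12 after saline, with intervals that include 1. Col17a1 had 11 UMIs in all.

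Several members differed by less than 2-fold with intervals that leave out 1. Col5a3 had 424 UMIs (14.2 CPM) after LPS, 172 UMIs (8.06 CPM) after poly(I:C) and 288 UMIs (8.11 CPM) after saline, with LPS over saline at 1.76 (1.51 to 2.05). For Col11a2 (10.8 CPM after LPS, 7.12 after poly(I:C) and 6.16 after saline) and Col16a1 (12.7 CPM after LPS, 7.50 after poly(I:C) and 8.36 after saline) the LPS library was also the highest, at 1.76 (1.47 to 2.09) and 1.52 (1.31 to 1.78) of saline. These genes were highest in astrocytes or oligodendrocyte precursors. Of all barcodes, gated astrocytes made up 2.21% after LPS, 0.307% after poly(I:C) and 0.350% after saline, and gated precursors 2.20% after LPS, 0.693% after poly(I:C) and 0.476% after saline; the part of these shares in the ratios was not tested. Col26a1 had 161 UMIs (5.41 CPM) after LPS, 219 UMIs (10.3 CPM) after poly(I:C) and 355 UMIs (9.99 CPM) after saline. LPS was thus low per UMI, at 0.541 (0.447 to 0.654) of saline. Col12a1, a fibril-associated collagen, was lower per UMI after both stimuli, at 0.744 (0.636 to 0.869) of saline for LPS and 0.771 (0.648 to 0.914) for poly(I:C). As UMIs per barcode, ratios of LPS over saline move up by 0.93 on the log2 scale. That is more than the LPS difference of Col26a1 or Col12a1, so neither was lower after LPS on that scale. Col2a1 had 29 UMIs after LPS, 25 after poly(I:C) and 54 after saline, Col9a2 83 UMIs after LPS, 44 after poly(I:C) and 107 after saline, and Col14a1 70 UMIs after LPS, 68 after poly(I:C) and 102 after saline.

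In endothelial nuclei Col4a1 and Col4a2 were higher after both stimuli than after saline, most after LPS, and Col4a3 was lower. Col4a1 had 253 UMIs (1443 CPM) after LPS, 158 UMIs (911 CPM) after poly(I:C) and 176 UMIs (501 CPM) after saline of the class total. Col4a2 had 151 UMIs (861 CPM) after LPS, 67 UMIs (386 CPM) after poly(I:C) and 58 UMIs (165 CPM) after saline. LPS was highest and saline lowest for both genes, and the Poisson intervals of the 3 libraries did not overlap. For Col4a1 the ratio was 2.88 (2.37 to 3.51) for LPS over saline, 1.82 (1.46 to 2.27) for poly(I:C) over saline and 1.59 (1.29 to 1.95) for LPS over poly(I:C). For Col4a2 it was 5.22 (3.83 to 7.2) for LPS over saline, 2.34 (1.62 to 3.39) for poly(I:C) over saline and 2.23 (1.66 to 3.02) for LPS over poly(I:C). The last 2 of these were within 2-fold under some alternatives, at 1.83 for poly(I:C) over saline when gated on the markers at even places of the list, and at 1.58 for LPS over poly(I:C) without the limit on neuronal RNA in the gate. The sum of both genes gave 3.46 (2.94 to 4.08) for LPS over saline, 1.95 (1.62 to 2.35) for poly(I:C) over saline and 1.78 (1.51 to 2.10) for LPS over poly(I:C), whereas over all barcodes LPS over saline was 1.04 (0.991 to 1.09). Endothelial nuclei made up a like share of all barcodes, at 1.47% after LPS, 1.42% after poly(I:C) and 1.53% after saline. The gates took in 52.1% of barcodes after LPS, 29.8% after poly(I:C) and 27.2% after saline. Among gated nuclei the endothelial share was therefore lowest after LPS.

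Col4a3 was lower in the same nuclei. It had 25 UMIs (143 CPM) after LPS, 8 UMIs (46.1 CPM) after poly(I:C) and 238 UMIs (677 CPM) after saline. Saline stood above both stimulated libraries, with LPS over saline at 0.211 (0.134 to 0.319), poly(I:C) over saline at 0.0681 (0.0291 to 0.136) and LPS over poly(I:C) at 3.09 (1.35 to 7.93). Of the UMIs of Col4a1, Col4a2 and Col4a3 together, Col4a3 made up 5.83% (3.81% to 8.48%) after LPS, 3.43% (1.49% to 6.65%) after poly(I:C) and 50.4% (45.8% to 55.0%) after saline, a share counted within each library. Col4a6 was also lower on few counts, with 1 UMI after LPS, 5 after poly(I:C) and 23 after saline and LPS over saline at 0.0872 (0.00212 to 0.537). Col1a1 had 2 UMIs after LPS, 12 after poly(I:C) and 11 after saline, with LPS over poly(I:C) at 0.165 (0.0179 to 0.741).

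Several members were called in the endothelial class. Of 16 measured members, 5 were higher and 3 lower for LPS over saline, against 13.2% and 13.9% of all measured genes. Of 15 measured members, 4 were higher and 3 lower for poly(I:C) over saline, against 10.6% and 19% of all measured genes. Of 11 measured members, 2 were higher and 2 lower for LPS over poly(I:C), against 15.1% and 11.1% of all measured genes. Beside Col4a1 and Col4a2, the members higher after LPS than after saline were Col3a1, Col6a1 and Col6a2, each with at most 12 UMIs a library and an interval that includes 1.

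The share of endothelial nuclei with a UMI gave the same order, but at equal depth poly(I:C) and saline lay close together for Col4a2. Col4a1 was found in 75.8% after LPS, 52.1% after poly(I:C) and 33.8% after saline, Col4a2 in 55.8% after LPS, 27.7% after poly(I:C) and 13.1% after saline, and Col4a3 in 13.3% after LPS, 3.76% after poly(I:C) and 42.8% after saline. Median depth was 884 UMIs after LPS, 621 after poly(I:C) and 729 after saline. With each nucleus thinned to 1000 UMIs, which kept 65 nuclei after LPS, 46 after poly(I:C) and 110 after saline and left out 100 after LPS, 167 after poly(I:C) and 278 after saline, the share with Col4a1 was 67.7% after LPS, 41.3% after poly(I:C) and 32.7% after saline, with Col4a2 53.8% after LPS, 19.6% after poly(I:C) and 18.2% after saline, and with Col4a3 18.5% after LPS, 6.52% after poly(I:C) and 49.1% after saline. Mature oligodendrocytes, which have no basement membrane of their own, had a median of 675 UMIs after LPS, 573 after poly(I:C) and 626.5 after saline and held Col4a1 in 1.38% after LPS, 0.513% after poly(I:C) and 3.31% after saline, Col4a2 in 1.24% after LPS, 2.05% after poly(I:C) and 1.38% after saline, and Col4a3 in 0.689% after LPS, 0.513% after poly(I:C) and 1.38% after saline.

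**Figure D2:**
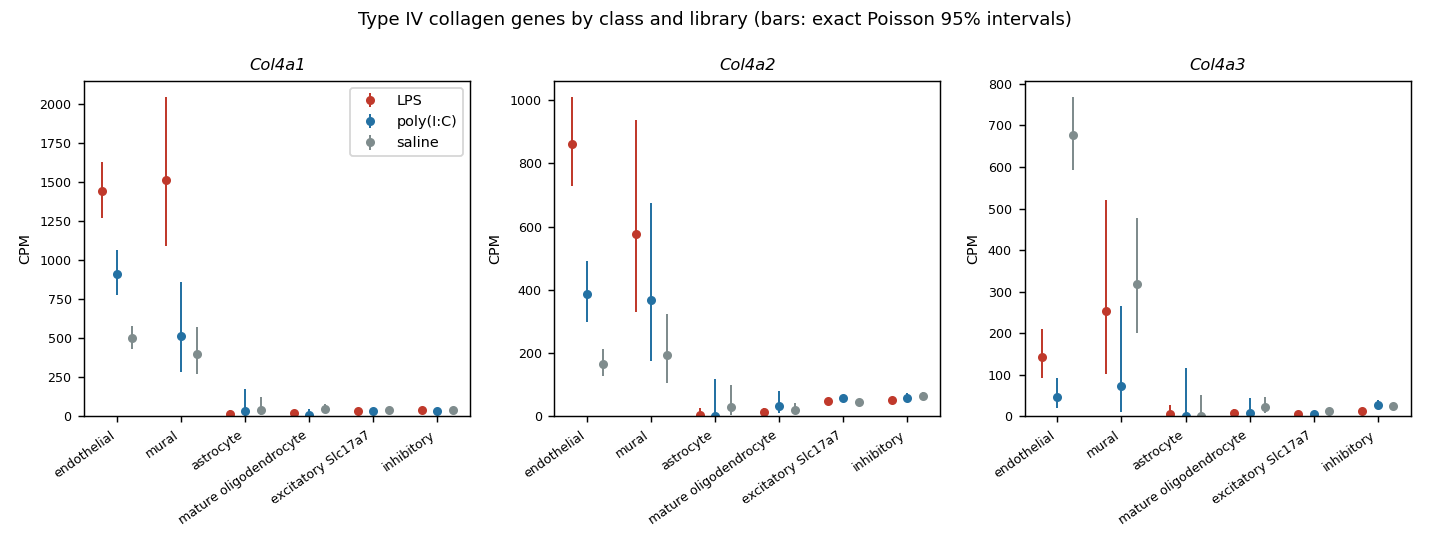
Level in CPM of the class total of Col4a1, Col4a2 and Col4a3 in 6 classes, with LPS, poly(I:C) and saline from left to right in each class and exact Poisson 95% intervals as bars. In endothelial nuclei LPS is highest for Col4a1 (1443 CPM) and Col4a2 (861 CPM), and saline is highest for Col4a3 (677 CPM).

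The endothelial gate also took in mural and haemoglobin transcripts. A mural marker UMI was found in 143 of 165 endothelial nuclei after LPS, 172 of 213 after poly(I:C) and 338 of 388 after saline, and the mural markers summed to 3405 CPM after LPS, 2881 after poly(I:C) and 3735 after saline, of which Rgs5, a pericyte gene, had 2025 CPM after LPS, 1637 after poly(I:C) and 2253 after saline. Smooth muscle markers had few UMIs, with 7 UMIs after LPS, 2 after poly(I:C) and 3 after saline for Myh11, 1 UMI after LPS, 1 after poly(I:C) and 2 after saline for Acta2, and 0 in each library for Cnn1. Haemoglobin genes summed to 6161 CPM after LPS, 3440.3 after poly(I:C) and 9776 after saline, and the 14 endothelial markers to 12316 CPM after LPS, 8777 after poly(I:C) and 9750.4 after saline. Single endothelial markers differed both ways, with LPS over saline at 2.11 for Ptprb, 3.65 for Cdh5, 0.379 for Tie1 and 0.371 for Emcn. Per UMI of the endothelial markers, the sum of Col4a1 and Col4a2 was 2.74 for LPS over saline and 2.16 for poly(I:C) over saline. Col4a3 per UMI of these markers was 0.167 for LPS over saline and 0.0757 for poly(I:C) over saline, and with haemoglobin genes as a class of their own it was 0.190 and 0.0540. Among 22 endothelial nuclei after LPS, 41 after poly(I:C) and 50 after saline that held no mural marker UMI, Col4a3 had 0 UMIs after LPS, 0 after poly(I:C) and 20 after saline.

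Mural nuclei, which hold pericytes and smooth muscle cells, also had more Col4a1 and Col4a2 after LPS, on fewer counts. Col4a1 had 42 UMIs (1514 CPM) after LPS, 14 UMIs (513 CPM) after poly(I:C) and 29 UMIs (400.0 CPM) after saline. Col4a2 had 16 UMIs (577 CPM) after LPS, 10 UMIs (366 CPM) after poly(I:C) and 14 UMIs (193 CPM) after saline. LPS was the highest library for both, with LPS over saline at 3.79 (2.30 to 6.30) for Col4a1 and 2.99 (1.37 to 6.61) for Col4a2, and LPS over poly(I:C) at 2.95 (1.58 to 5.85) for Col4a1 (1.72 on even markers). The sum of both was 3.53 (2.34 to 5.36) for LPS over saline and 1.48 (0.861 to 2.50) for poly(I:C) over saline. Gated on the odd markers, LPS over saline was 2.05 for the sum and 0.701 for Col4a2 alone. Col4a3 had 7 UMIs after LPS, 2 after poly(I:C) and 23 after saline, with poly(I:C) over saline at 0.231 (0.0264 to 0.935), which turned to 2.14 in that gate. Endothelial markers in mural nuclei summed to 6346 CPM after LPS, 4397 after poly(I:C) and 5393 after saline. The part of endothelial RNA in the mural values of Col4a1, Col4a2 and Col4a3 was not tested. Of 8 measured members, 3 were higher and 1 lower for LPS over saline, against 14.7% and 21.3% of all measured genes. Of 6 measured members, 0 were higher and 2 lower for poly(I:C) over saline, against 13.9% and 21% of all measured genes. Of 3 measured members, 1 was higher and 0 lower for LPS over poly(I:C), against 14.7% and 19.2% of all measured genes.

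Each neuronal class held less Col4a3 than endothelial nuclei of the same library, and per UMI it was at least 2-fold lower after LPS than after saline in 2 of the 4 neuronal classes. In Slc17a7 excitatory neurons it had 29 UMIs (3.83 CPM) after LPS, 14 UMIs (4.69 CPM) after poly(I:C) and 53 UMIs (11.1 CPM) after saline, with LPS over saline at 0.344 (0.211 to 0.551) and poly(I:C) over saline at 0.421 (0.216 to 0.770). Gated on the odd markers these ratios were 0.651 and 0.824, so that neither call held. In inhibitory neurons it had 37 UMIs (11.7 CPM) after LPS, 39 UMIs (27.6 CPM) after poly(I:C) and 66 UMIs (25.4 CPM) after saline, so LPS was low, at 0.459 (0.298 to 0.697) of saline and 0.423 (0.263 to 0.681) of poly(I:C), while poly(I:C) over saline was 1.08 (0.710 to 1.63). Nuclei of neurons were deeper after LPS, and as UMIs per nucleus LPS over saline was 0.637 in Slc17a7 excitatory and 0.815 in inhibitory neurons, and LPS over poly(I:C) 0.821 in the inhibitory class. The median inhibitory nucleus held 2463 UMIs after LPS, 1229 after poly(I:C) and 1352 after saline. Inhibitory nuclei with Adarb2, Vip, Prox1 and Cnr1 held 34.3 CPM after LPS, 89.8 after poly(I:C) and 80.2 after saline. After poly(I:C) this subgroup was above endothelial nuclei, which held 46.1 CPM on 8 UMIs. In striatal projection neurons, with 26 UMIs after LPS, 11 after poly(I:C) and 34 after saline, LPS over saline was 0.731 (0.421 to 1.25) and poly(I:C) over saline 0.485 (0.222 to 0.980) (0.577 on odd markers), and in Slc17a6 excitatory neurons LPS over saline was 0.674 (0.282 to 1.78). Choroid plexus epithelium had 9 UMIs (228 CPM) after LPS, 0 UMIs (0 CPM) after poly(I:C) and 1 UMI (29.1 CPM) after saline, with LPS over saline at 7.84 (1.09 to 344). After LPS its level was thus above that of endothelial nuclei.

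The multiplexins Col15a1 and Col18a1 are basement membrane collagens whose ends are cut off as endostatin-like fragments. Col18a1 had 16 UMIs (91.3 CPM) after LPS, 19 UMIs (109 CPM) after poly(I:C) and 23 UMIs (65.4 CPM) after saline in endothelial nuclei, 4 UMIs (144 CPM) after LPS, 6 UMIs (219.9 CPM) after poly(I:C) and 15 UMIs (207 CPM) after saline in mural nuclei, and 11 UMIs (366 CPM) after LPS, 2 UMIs (240.0 CPM) after poly(I:C) and 3 UMIs (151 CPM) after saline in fibroblast nuclei. No ratio of it in these classes had an interval that leaves out 1. Col15a1 was highest in Slc17a6 excitatory neurons, with 40 UMIs (77.1 CPM) after LPS, 9 UMIs (96.0 CPM) after poly(I:C) and 11 UMIs (74.8 CPM) after saline, 3.20-fold above the next lineage. In striatal projection neurons it had 34 UMIs after LPS, 6 after poly(I:C) and 21 after saline, with LPS over poly(I:C) at 3.61 (1.5 to 10.5).

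Across classes some members had a leading class, but most did not pass the rule used here. For 13 of the 42 members, the mean CPM of the 3 libraries in 1 class was at least 3-fold above the next lineage, with at least 10 UMIs in the leading class, and for 9 of the 13 the same class led in all 3 libraries. The leading class was endothelial for Col4a1, Col4a2 and Col4a3, fibroblast for Col3a1 and Col5a1, ependymal for Col11a1, choroid plexus epithelium for Col8a1, oligodendrocyte precursor for Col5a3, differentiating oligodendrocyte for Col20a1, astrocyte for Col11a2, Slc17a6 excitatory for Col15a1, and inhibitory for Col19a1 and Col24a1. The 4 for which another class led in at least 1 library were Col4a1, Col4a2, Col4a3 and Col5a1. Mural nuclei stood above endothelial nuclei for Col4a1 after LPS, for Col4a2 after saline, and for Col4a3 after LPS (252 against 143 CPM) and poly(I:C) (73.3 against 46.1 CPM), so that the endothelial mean of Col4a3 rests on the saline library. Col5a1 had no UMI in fibroblast nuclei after poly(I:C). With the gate on odd or even markers of each list, 8 and 5 members passed this rule. The next lineage held under 10 UMIs of Col4a1, Col5a1, Col8a1, Col15a1, Col19a1, Col20a1 and Col24a1, so their folds over it are rough. Endothelial and mural nuclei counted as 1 lineage here, as did the classes of oligodendrocytes and the classes of neurons. Levels are set side by side between classes for 1 gene at a time, since UMIs of genes of different length cannot be ranked.

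**Figure D3:**
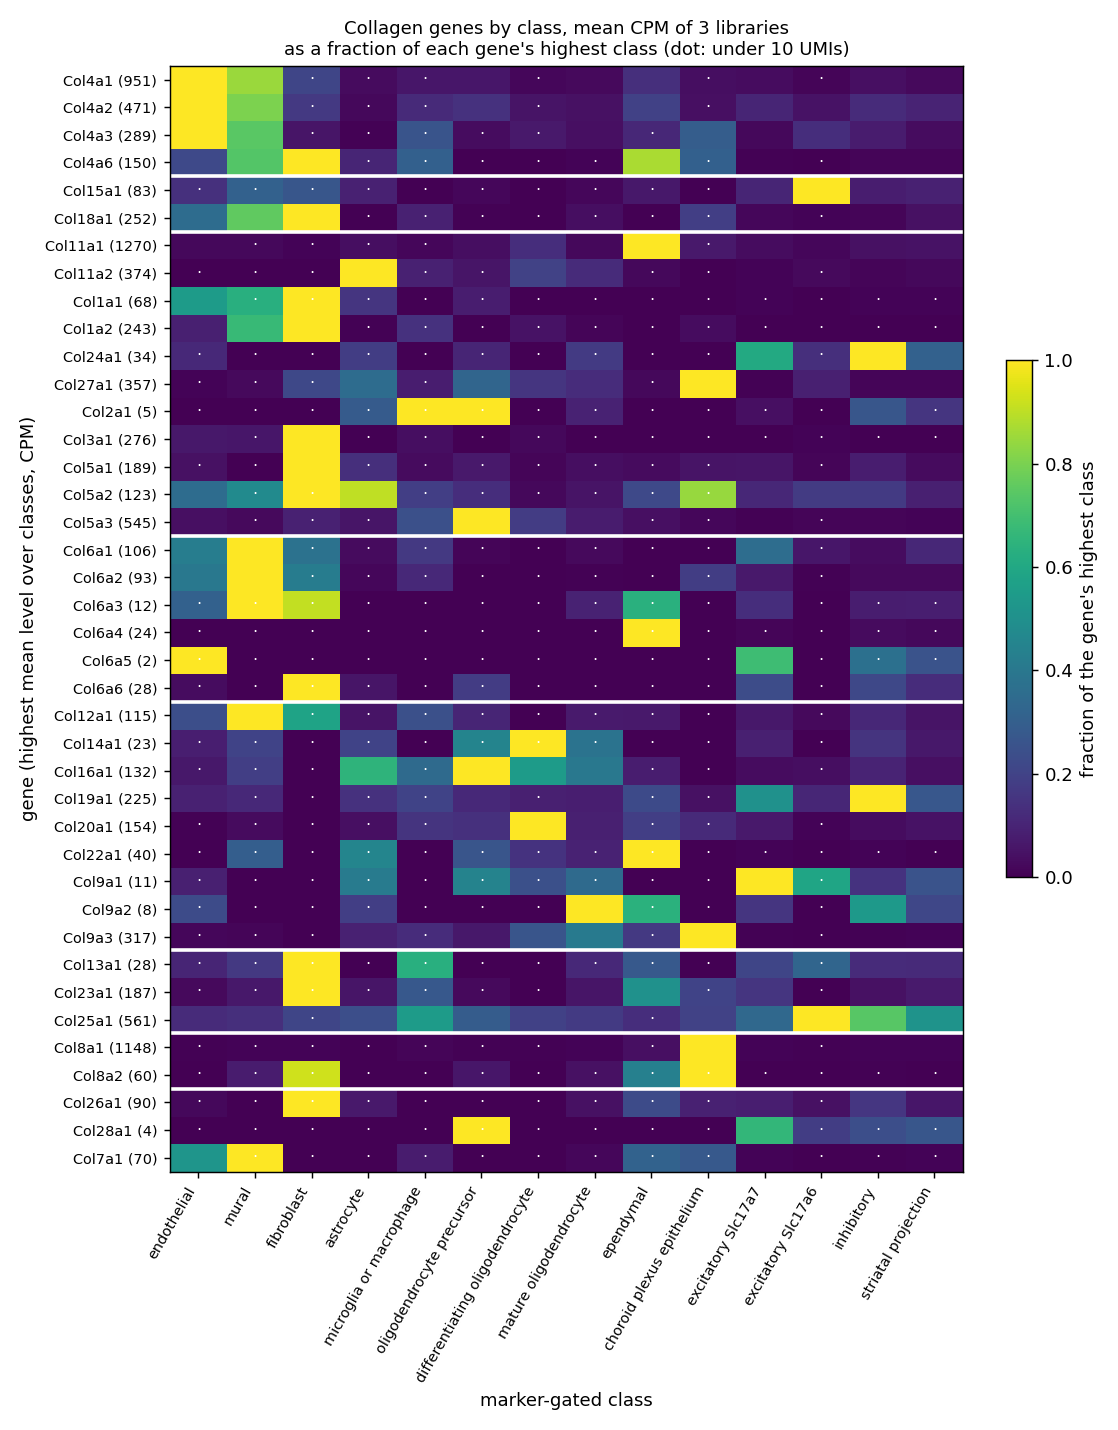
Mean CPM over the 3 libraries in each of 14 gated classes for the 40 members with at least 30 UMIs, each gene scaled to its highest class, whose mean level in CPM stands in brackets; white lines separate role groups and a dot marks a class with under 10 UMIs of that gene. Col11a1 is brightest in ependymal nuclei, Col8a1 in choroid plexus epithelium and Col4a2 in endothelial nuclei.

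Fibroblast nuclei, the meningeal and perivascular class, were too few to compare libraries. Col3a1, the chain of type III collagen, had 8 UMIs (266 CPM) after LPS, 3 UMIs (359.9 CPM) after poly(I:C) and 4 UMIs (201 CPM) after saline, and its mean was 15.3-fold above the next lineage. Col5a1, a type V chain that helps set fibril width, had 5 UMIs after LPS, 0 after poly(I:C) and 8 after saline, and Col1a2 had 3 UMIs after LPS, 4 after poly(I:C) and 3 after saline. The sum of Col1a1, Col1a2 and Col3a1 gave 0.994 (0.374 to 2.80) for LPS over saline, 2.39 (0.782 to 7.31) for poly(I:C) over saline and 0.416 (0.156 to 1.17) for LPS over poly(I:C). At this depth a 2-fold difference in them was not detectable. Of 4 measured members, 1 was higher and 1 lower for LPS over saline, against 20% and 16.6% of all measured genes. For poly(I:C) over saline no member reached 10 UMIs, and 17.1% of all measured genes were higher and 18.8% lower. Of 2 measured members, 0 were higher and 0 lower for LPS over poly(I:C), against 23.9% and 18.2% of all measured genes. Col1a2 was also read in mural nuclei, with 4 UMIs (144 CPM) after LPS, 5 UMIs (183 CPM) after poly(I:C) and 12 UMIs (166 CPM) after saline. In fibroblast nuclei it was at 99.8 CPM after LPS, 479.9 after poly(I:C) and 151 after saline. On these few counts the mural level was thus the higher one after LPS and saline.

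Of 4 collagens read in the epithelia that line the ventricles, Col11a1 and Col8a1 passed the 3-fold rule. Col9a3 (2.45-fold above the next lineage) and Col27a1 (2.83-fold) did not. Col11a1, a chain of type XI fibrils known from cartilage, had 76 UMIs (1203 CPM) after LPS, 22 UMIs (1447 CPM) after poly(I:C) and 50 UMIs (1161 CPM) after saline in ependymal nuclei, 7.69-fold above the next lineage. The libraries did not differ beyond counting error, with LPS over saline at 1.04 (0.716 to 1.51) and poly(I:C) over saline at 1.25 (0.719 to 2.10). Col8a1, a short-chain collagen of the corneal basement membrane and of vessel walls, had 55 UMIs (1392 CPM) after LPS, 17 UMIs (1208 CPM) after poly(I:C) and 29 UMIs (843 CPM) after saline in choroid plexus epithelium, 24.7-fold above the next lineage. LPS was highest there, at 1.65 (1.04 to 2.69) of saline. Col9a3, a chain of type IX collagen, was at 506 CPM after LPS, 213 after poly(I:C) and 232 after saline in choroid plexus epithelium and at 107 CPM after LPS, 125 after poly(I:C) and 157 after saline in mature oligodendrocytes. Col27a1, a fibrillar collagen of cartilage, was at 354 CPM after LPS, 426 after poly(I:C) and 291 after saline in choroid plexus epithelium. Choroid plexus nuclei had few members to compare. Of 5 measured members, 2 were higher and 0 lower for LPS over saline, against 16.9% and 15.6% of all measured genes. Of 3 measured members, 0 were higher and 0 lower for poly(I:C) over saline, against 17.7% and 22.3% of all measured genes. Of 3 measured members, 1 was higher and 0 lower for LPS over poly(I:C), against 16% and 14.2% of all measured genes. None of the ependymal members was called. Of 4 measured members, 0 were higher and 0 lower for LPS over saline, against 16.3% and 14.5% of all measured genes. Of the 1 measured member, 0 were higher and 0 lower for poly(I:C) over saline, against 9.24% and 13.6% of all measured genes. Of 2 measured members, 0 were higher and 0 lower for LPS over poly(I:C), against 18.9% and 12.3% of all measured genes.

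Astrocytes were marked by Col11a2, another type XI chain. It had 101 UMIs (467 CPM) after LPS, 12 UMIs (379.9 CPM) after poly(I:C) and 20 UMIs (275 CPM) after saline, 5.09-fold above the next lineage, with LPS over saline at 1.70 (1.04 to 2.90). Col5a2, a type V chain, had 36 UMIs (166 CPM) after LPS, 4 UMIs (127 CPM) after poly(I:C) and 3 UMIs (41.3 CPM) after saline, with LPS over saline at 4.03 (1.27 to 20.5). Saline was thus the lowest library for both. Of 6 measured members, 3 were higher and 0 lower for LPS over saline, against 13.7% and 10.5% of all measured genes. Of 3 measured members, 1 was higher and 1 lower for poly(I:C) over saline, against 9.09% and 12.5% of all measured genes. Of 6 measured members, 1 was higher and 0 lower for LPS over poly(I:C), against 12.9% and 14.1% of all measured genes.

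Along the oligodendrocyte lineage, Col5a3 was highest in precursors and Col20a1 in differentiating oligodendrocytes, each in all 3 libraries. In precursors Col5a3, a type V chain, had 144 UMIs (593 CPM) after LPS, 32 UMIs (512 CPM) after poly(I:C) and 50 UMIs (531 CPM) after saline, with LPS over saline at 1.12 (0.805 to 1.57) and poly(I:C) over saline at 0.963 (0.598 to 1.53). In differentiating oligodendrocytes it was at 97.2 CPM after LPS, 70.0 after poly(I:C) and 121 after saline, and in mature ones at 34.7 CPM after LPS, 31.2 after poly(I:C) and 57.0 after saline. Col20a1, a fibril-associated collagen, had 12 UMIs (97.2 CPM) after LPS, 11 UMIs (193 CPM) after poly(I:C) and 10 UMIs (173 CPM) after saline in differentiating oligodendrocytes. Col16a1, also fibril-associated, was at 173 CPM after LPS, 128 after poly(I:C) and 95.6 after saline in precursors and at 54.3 CPM after LPS, 54.6 after poly(I:C) and 49.9 after saline in mature oligodendrocytes. Few precursor members were called. Of 10 measured members, 0 were higher and 1 lower for LPS over saline, against 9.02% and 8.63% of all measured genes. Of 6 measured members, 0 were higher and 2 lower for poly(I:C) over saline, against 9.45% and 9.85% of all measured genes. Of 7 measured members, 2 were higher and 1 lower for LPS over poly(I:C), against 13.3% and 9.73% of all measured genes. The members apart there were Col27a1, with 42 UMIs after LPS, 3 after poly(I:C) and 12 after saline and LPS over poly(I:C) at 3.61 (1.15 to 18.2), and Col4a2, with 16 UMIs after LPS, 1 after poly(I:C) and 11 after saline and poly(I:C) over saline at 0.137 (0.00318 to 0.941). Neither call held under every alternative, with Col27a1 at 1.64 on odd markers and Col4a2 at 0.599 without the limit on neuronal RNA.

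Differentiating oligodendrocytes differed between libraries in Col11a1. It had 31 UMIs (251 CPM) after LPS, 12 UMIs (210.1 CPM) after poly(I:C) and 2 UMIs (34.6 CPM) after saline, in 107 nuclei after LPS, 78 after poly(I:C) and 75 after saline. Both stimulated libraries stood above saline, with LPS at 7.25 (1.85 to 62.5) and poly(I:C) at 6.07 (1.35 to 55.8). Col16a1 had 16 UMIs after LPS, 4 after poly(I:C) and 1 after saline, with LPS over saline at 7.49 (1.16 to 314), or 1.59 on even markers. Of 8 measured members, 4 were higher and 0 lower for LPS over saline, against 9.76% and 8.12% of all measured genes. Of 4 measured members, 2 were higher and 0 lower for poly(I:C) over saline, against 9.98% and 8.44% of all measured genes. Of 8 measured members, 2 were higher and 0 lower for LPS over poly(I:C), against 11.2% and 8.33% of all measured genes. Neuronal markers summed to 875 CPM after LPS, 875 after poly(I:C) and 796 after saline and astrocyte markers to 324 CPM after LPS, 210.1 after poly(I:C) and 138 after saline in these nuclei, and their part in the result was not tested.

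Mature oligodendrocytes had several low-count members that were lower after LPS. Col27a1 had 14 UMIs after LPS, 5 after poly(I:C) and 21 after saline, with LPS over saline at 0.282 (0.133 to 0.582) (0.642 when gated on alternate markers). Col8a1 had 3 UMIs after LPS, 0 after poly(I:C) and 10 after saline, with LPS over saline at 0.127 (0.0224 to 0.493) (0.734 in a gate of at least 5 marker UMIs). Col23a1, a transmembrane collagen, had 4 UMIs after LPS, 0 after poly(I:C) and 7 after saline, with LPS over saline at 0.242 (0.0519 to 0.951), or 0.579 without the limit on neuronal RNA. So saline stood above LPS for each of these. The 0 UMIs of Col8a1 and Col23a1 after poly(I:C) were too few to place that library. Col25a1 had 50 UMIs (75.4 CPM) after LPS, 7 UMIs (54.6 CPM) after poly(I:C) and 44 UMIs (157 CPM) after saline, with LPS over saline at 0.481 (0.314 to 0.738) and poly(I:C) over saline at 0.349 (0.132 to 0.780). Both turned on even markers, to 9.63 for LPS and 4.84 for poly(I:C) over saline, and the 2-fold call ended under 10 of 14 alternatives for LPS and 5 of 14 for poly(I:C). Neurons hold more Col25a1 than these nuclei, and neuronal markers in these nuclei summed to 678 CPM after LPS, 819.6 after poly(I:C) and 994 after saline; their part in the result was not tested. Col11a2 was low in LPS beside poly(I:C). It had 12 UMIs after LPS, 11 after poly(I:C) and 10 after saline, with LPS over poly(I:C) at 0.211 (0.0851 to 0.527) (0.530 when gated on alternate markers). Of 15 measured members, 0 were higher and 7 lower for LPS over saline, against 7.52% and 7.01% of all measured genes. Of 10 measured members, 1 was higher and 2 lower for poly(I:C) over saline, against 6.66% and 9.97% of all measured genes. Of 11 measured members, 1 was higher and 2 lower for LPS over poly(I:C), against 11.1% and 8.01% of all measured genes.

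Microglia or macrophages held few collagen UMIs. Col25a1 had 28 UMIs after LPS, 2 after poly(I:C) and 7 after saline, with LPS over poly(I:C) at 4.26 (1.07 to 36.9), which was 1.42 without the nuclei that held a UMI of the neuronal gene Syt1. Beside 561 CPM in Slc17a6 excitatory and 415 CPM in inhibitory neurons, the mean of Col25a1 over the 3 libraries was 307 CPM in microglia or macrophages. Neuronal markers there summed to 995 CPM after LPS, 1160.5 after poly(I:C) and 1470.0 after saline, and their part in the result was not tested. Of the 1 measured member, 0 were higher and 0 lower for LPS over saline, against 17.3% and 12.2% of all measured genes. For poly(I:C) over saline no member reached 10 UMIs, and 16.2% of all measured genes were higher and 16.7% lower. Of the 1 measured member, 1 was higher and 0 lower for LPS over poly(I:C), against 16.3% and 10.2% of all measured genes.

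**Figure D4:**
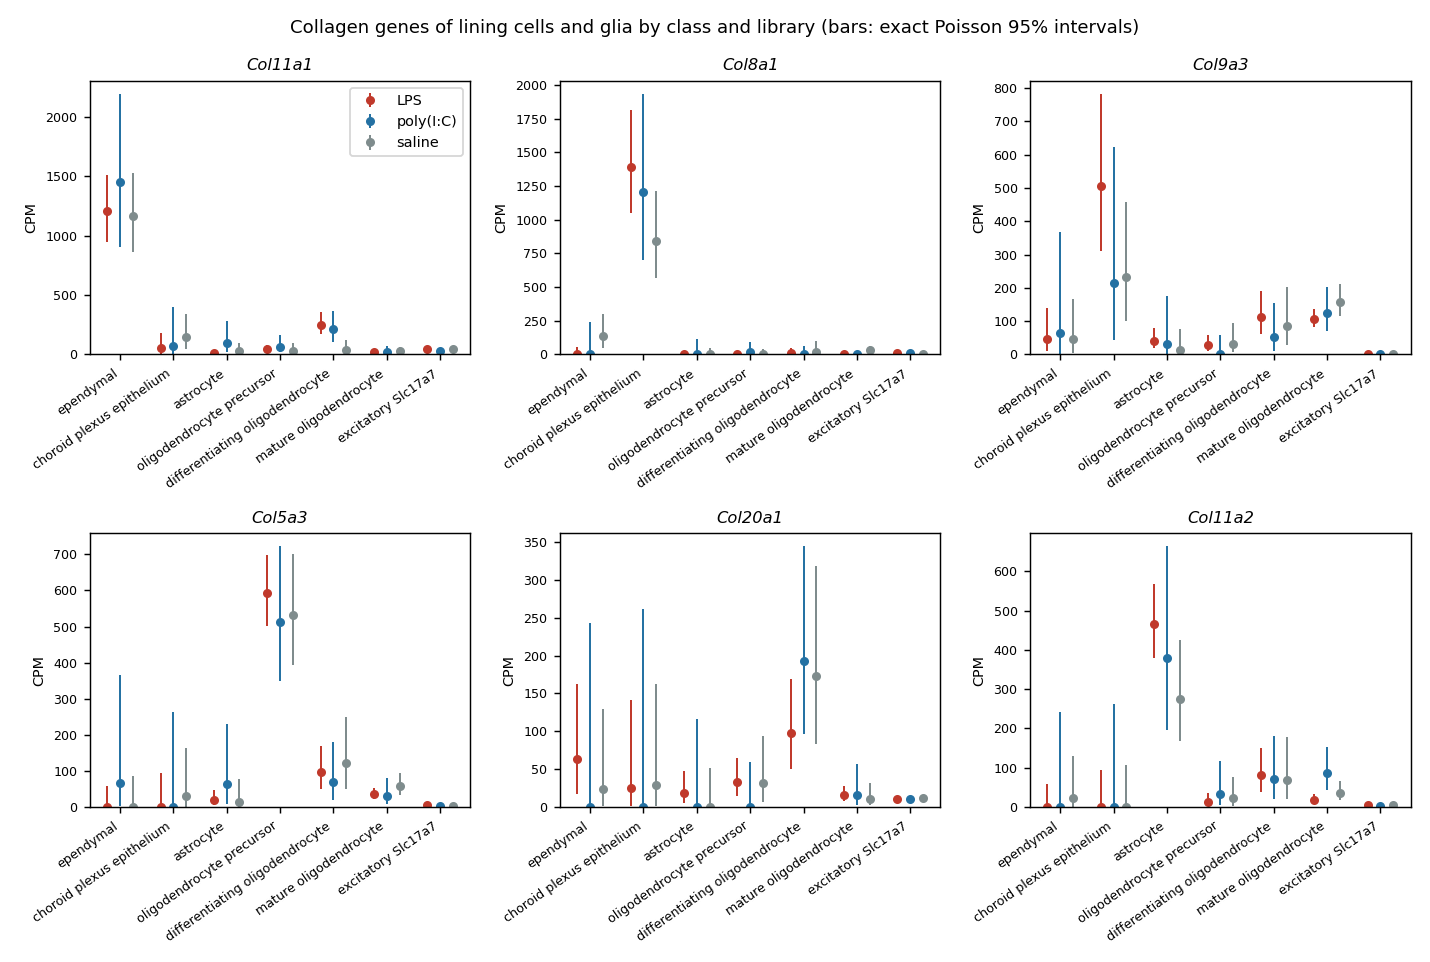
Level in CPM of the class total of 6 members in 7 classes, with LPS, poly(I:C) and saline from left to right in each class and exact Poisson 95% intervals as bars. Col11a1 is high in ependymal nuclei in each library (1203 CPM after LPS, 1447 after poly(I:C) and 1161 after saline), Col5a3 in oligodendrocyte precursors (593 CPM after LPS, 512 after poly(I:C) and 531 after saline), and Col11a1 of differentiating oligodendrocytes is lowest in saline (34.6 CPM).

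Col25a1, a transmembrane collagen that is shed from neurons and known from amyloid plaques, was read in every neuronal class. Over all barcodes it had 7979 UMIs (268 CPM) after LPS, 5641 UMIs (264 CPM) after poly(I:C) and 10232 UMIs (288 CPM) after saline. Its order by class was the same in each library: Slc17a6 excitatory neurons were at 586 CPM after LPS, 586 after poly(I:C) and 509.9 after saline, inhibitory neurons at 422 CPM after LPS, 433 after poly(I:C) and 390.1 after saline, striatal projection neurons at 265 CPM after LPS, 282 after poly(I:C) and 317 after saline, and Slc17a7 excitatory neurons at 181 CPM after LPS, 180.0 after poly(I:C) and 206 after saline. Within inhibitory neurons it was at 569.7 CPM after LPS, 823 after poly(I:C) and 645 after saline in nuclei with Sst, Grin3a and Elfn1. Nuclei with Kcnc1, Erbb4 and Btbd11 were at 303 CPM after LPS, 439.8 after poly(I:C) and 344 after saline, and those with Adarb2, Vip, Prox1 and Cnr1 at 383 CPM after LPS, 461 after poly(I:C) and 475 after saline. The Sst nuclei were thus the highest of the 3 subgroups in every library. In endothelial nuclei Col25a1 had 5 UMIs after LPS, 24 after poly(I:C) and 15 after saline, with poly(I:C) over saline at 3.24 (1.63 to 6.65) and LPS over poly(I:C) at 0.206 (0.0615 to 0.551). Without the limit on neuronal RNA in the gate these ratios were 0.985 and 1.24, and neuronal markers in the gated endothelial nuclei summed to 451 CPM after LPS, 876 after poly(I:C) and 794 after saline.

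Col19a1 is a fibril-associated collagen needed for inhibitory synapses in mouse cortex. Over all barcodes it had 3316 UMIs (111 CPM) after LPS, 2525 UMIs (118 CPM) after poly(I:C) and 4385 UMIs (123 CPM) after saline. Inhibitory neurons held 740 UMIs (233 CPM) after LPS, 272 UMIs (192 CPM) after poly(I:C) and 648 UMIs (249.8 CPM) after saline, 4.47-fold above the next lineage, and poly(I:C) was the lowest library, at 0.770 (0.666 to 0.889) of saline. Nuclei with Sst, Grin3a and Elfn1 were at 647 CPM after LPS, 511 after poly(I:C) and 402 after saline, and those with Adarb2, Vip, Prox1 and Cnr1 at 359 CPM after LPS, 355 after poly(I:C) and 561 after saline. Per UMI, LPS was thus the highest library in the Sst nuclei and saline in the Adarb2 nuclei, a difference that was not tested. In striatal projection neurons Col19a1 was at 52.3 CPM after LPS, 55.6 after poly(I:C) and 75.2 after saline. The ratio per UMI was 0.695 (0.559 to 0.862) for LPS over saline and 0.739 (0.576 to 0.942) for poly(I:C) over saline. The median nucleus of this class held 2652 UMIs after LPS, 1264 after poly(I:C) and 1316 after saline. As UMIs per nucleus, Col19a1 was not lower there after LPS.

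Col24a1, a fibrillar collagen known from bone and cornea, was also highest in inhibitory neurons. It had 87 UMIs (27.5 CPM) after LPS, 58 UMIs (41.0 CPM) after poly(I:C) and 84 UMIs (32.4 CPM) after saline there, and 75.5 CPM after LPS, 93.7 after poly(I:C) and 82.4 after saline in the nuclei with Adarb2, Vip, Prox1 and Cnr1. In Slc17a7 excitatory neurons it had 121 UMIs (16.0 CPM) after LPS, 51 UMIs (17.1 CPM) after poly(I:C) and 134 UMIs (28.1 CPM) after saline. Per UMI both stimulated libraries were low, with LPS over saline at 0.568 (0.440 to 0.732) and poly(I:C) over saline at 0.607 (0.431 to 0.844). The class held 1955 nuclei after LPS and 2275 after saline, and as UMIs per nucleus LPS was not low. Nuclei with Hs3st4, Foxp2, Tle4 and Syt6, genes of cortical layer 6, held 50.9 CPM after LPS, 31.4 after poly(I:C) and 72.6 after saline of Col24a1, and those with Il1rapl2, Etv1 and Tacr3 held 0 CPM after LPS, 9.33 after poly(I:C) and 1.61 after saline. Col23a1, a transmembrane collagen, was at 62.7 CPM after LPS, 27.9 after poly(I:C) and 51.3 after saline in the layer 6 nuclei and at 26.6 CPM after LPS, 16.3 after poly(I:C) and 11.2 after saline in the Il1rapl2 nuclei. Both genes were higher in the layer 6 nuclei in every library. Col9a1, a chain of type IX collagen, was at 28.0 CPM after LPS, 38.3 after poly(I:C) and 27.1 after saline in the layer 6 nuclei and at 10.3 CPM after LPS, 21.0 after poly(I:C) and 8.03 after saline in the Il1rapl2 nuclei. Col5a1 was at 69.2 CPM after LPS, 70.9 after poly(I:C) and 67.0 after saline in the Sst nuclei and at 5.96 CPM after LPS, 7.78 after poly(I:C) and 17.8 after saline in the nuclei with Kcnc1, Erbb4 and Btbd11.

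**Figure D5:**
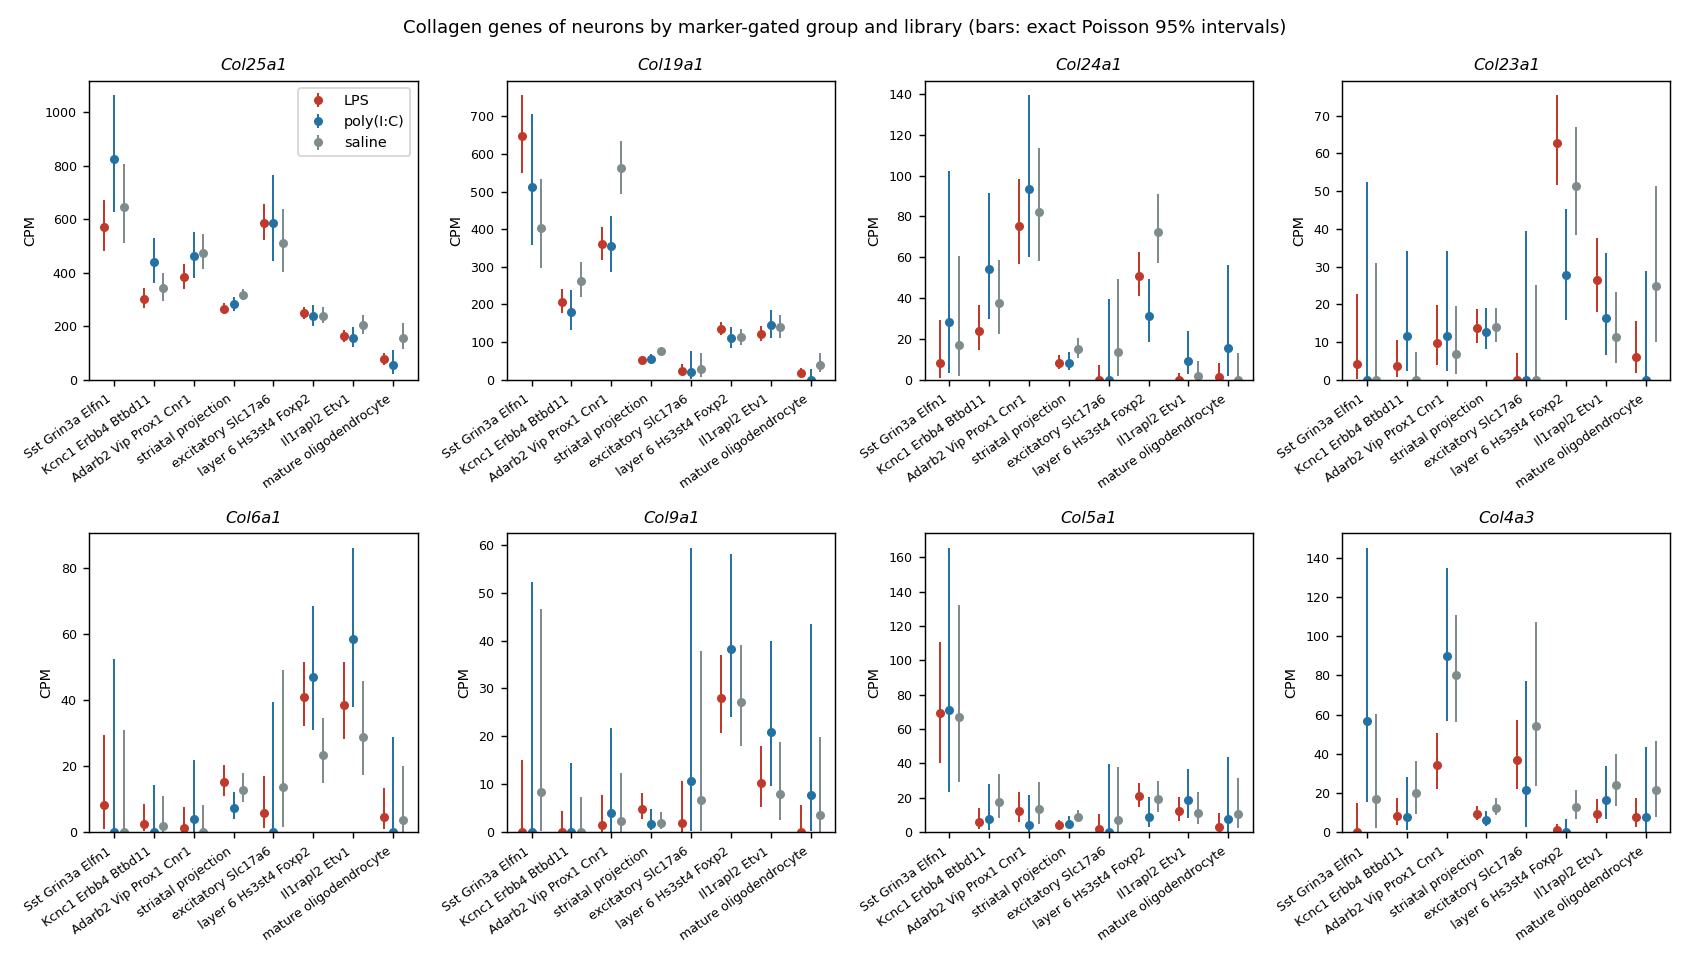
Level in CPM of the class total of 8 members in 8 marker-gated groups, with LPS, poly(I:C) and saline from left to right in each group and exact Poisson 95% intervals as bars. Col25a1 and Col19a1 are high in the Sst group, Col24a1 in the Adarb2 group and in layer 6 nuclei, and Col4a3 in the Adarb2 group, where LPS is lowest (34.3 CPM).

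Type VI collagens form beaded filaments beside basement membranes. Col6a1 in Slc17a7 excitatory neurons had 289 UMIs (38.1 CPM) after LPS, 138 UMIs (46.2 CPM) after poly(I:C) and 137 UMIs (28.7 CPM) after saline, so saline was the lowest library, with LPS over saline at 1.33 (1.08 to 1.64) and poly(I:C) over saline at 1.61 (1.26 to 2.05). Over all barcodes it had 672 UMIs (22.6 CPM) after LPS, 502 UMIs (23.5 CPM) after poly(I:C) and 619 UMIs (17.4 CPM) after saline, with LPS over saline at 1.30 (1.16 to 1.45) and poly(I:C) over saline at 1.35 (1.20 to 1.52). In striatal projection neurons it had 43 UMIs after LPS, 13 after poly(I:C) and 35 after saline, with LPS over poly(I:C) at 2.11 (1.11 to 4.27) (1.70 on odd markers, 4.47 as UMIs per nucleus). Col6a2 there had 13 UMIs after LPS, 0 after poly(I:C) and 7 after saline. With 3 counts in place of the 0, LPS over poly(I:C) was 2.76, a value that leaves out the counting error of the 13 UMIs. Col6a6 had 8 UMIs after LPS, 11 after poly(I:C) and 5 after saline, with poly(I:C) over saline at 3.30 (1.06 to 12.1). Over all barcodes Col6a3 was at 1.61 CPM after LPS, 1.69 after poly(I:C) and 1.29 after saline, Col6a4 at 0.403 CPM after LPS, 0.422 after poly(I:C) and 0.563 after saline, and Col6a5 at 0.974 CPM after LPS, 0.890 after poly(I:C) and 1.15 after saline, with no ratio of 2-fold.

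Some further members differed in neurons. Col8a1 in Slc17a7 excitatory neurons had 96 UMIs (12.7 CPM) after LPS, 32 UMIs (10.7 CPM) after poly(I:C) and 30 UMIs (6.29 CPM) after saline, with LPS over saline at 2.01 (1.32 to 3.14) (1.5 in a gate of at least 5 marker UMIs, 3.72 as UMIs per nucleus). Col13a1, a transmembrane collagen of the neuromuscular junction, had 63 UMIs (8.31 CPM) after LPS, 15 UMIs (5.02 CPM) after poly(I:C) and 20 UMIs (4.2 CPM) after saline there, with LPS over saline at 1.98 (1.18 to 3.46). Saline was the lowest library for both. Col26a1 had 29 UMIs (9.15 CPM) after LPS, 21 UMIs (14.8 CPM) after poly(I:C) and 48 UMIs (18.5 CPM) after saline in inhibitory neurons, with LPS over saline at 0.495 (0.301 to 0.8) (0.247 in a gate of at least 5 marker UMIs), and 7 UMIs (2.45 CPM) after LPS, 11 UMIs (6.05 CPM) after poly(I:C) and 21 UMIs (7.71 CPM) after saline in striatal projection neurons, with LPS over saline at 0.319 (0.114 to 0.778). LPS was therefore its lowest library in both classes per UMI, but as UMIs per nucleus these ratios were 0.878 and 0.616. Col5a1 in striatal projection neurons had 11 UMIs after LPS, 9 after poly(I:C) and 24 after saline, with LPS over saline at 0.438 (0.194 to 0.929) per UMI and 0.847 as UMIs per nucleus. Col5a3 in inhibitory neurons had 12 UMIs after LPS, 16 after poly(I:C) and 12 after saline, with poly(I:C) over saline at 2.45 (1.09 to 5.66) per UMI but 1.08 with each nucleus weighted equally; LPS over poly(I:C) was 0.335 (0.145 to 0.754) per UMI and 0.649 as UMIs per nucleus. Col4a6 had 12 UMIs after LPS, 4 after poly(I:C) and 1 after saline in the same class, with LPS over saline at 9.82 (1.45 to 419.9). Col28a1 in Slc17a7 excitatory neurons had 8 UMIs after LPS, 11 after poly(I:C) and 11 after saline, and LPS over poly(I:C), at 0.287 (0.100 to 0.783), turned to 1.41 in a gate of at least 5 marker UMIs.

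Counts of called members in neurons differed from the background by few genes. In Slc17a7 excitatory neurons, more members were lower than higher. Of 33 measured members, 2 were higher and 4 lower for LPS over saline, against 2.13% and 2.92% of all measured genes. Of 31 measured members, 1 was higher and 2 lower for poly(I:C) over saline, against 1.98% and 5.04% of all measured genes. Of 32 measured members, 2 were higher and 3 lower for LPS over poly(I:C), against 3.76% and 2.32% of all measured genes. Slc17a6 excitatory neurons had few members to compare. Of 8 measured members, 0 were higher and 1 lower for LPS over saline, against 8.16% and 7.28% of all measured genes. Of 3 measured members, 0 were higher and 1 lower for poly(I:C) over saline, against 6.92% and 9.81% of all measured genes. Of 7 measured members, 1 was higher and 0 lower for LPS over poly(I:C), against 9.95% and 7.69% of all measured genes. Inhibitory neurons gave similar counts. Of 29 measured members, 1 was higher and 3 lower for LPS over saline, against 2.58% and 2.73% of all measured genes. Of 27 measured members, 2 were higher and 2 lower for poly(I:C) over saline, against 2.71% and 4.43% of all measured genes. Of 27 measured members, 0 were higher and 3 lower for LPS over poly(I:C), against 4.09% and 2.99% of all measured genes. In striatal projection neurons, LPS over poly(I:C) gave the most calls. Of 29 measured members, 1 was higher and 3 lower for LPS over saline, against 1.89% and 3.73% of all measured genes. Of 26 measured members, 1 was higher and 3 lower for poly(I:C) over saline, against 2.31% and 6.36% of all measured genes. Of 26 measured members, 5 were higher and 2 lower for LPS over poly(I:C), against 3.84% and 2.6% of all measured genes.

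Genes that build collagen were read in the same endothelial nuclei, from lists of other genes of the pathway. For folding and crosslinking, 2 of 13 measured genes were higher and 2 lower for LPS over saline and 2 of 13 measured genes were higher and 3 lower for poly(I:C) over saline, with a median log2 ratio of 0.13 for LPS and -0.57 for poly(I:C), against -0.07 and -0.20 over all measured genes. Of all measured genes, 13.2% and 13.9% were higher and lower for LPS over saline and 10.6% and 19% for poly(I:C) over saline, shares near those of the list. P4ha1, a subunit of the enzyme that hydroxylates collagen prolines, had 37 UMIs (211 CPM) after LPS, 44 UMIs (254 CPM) after poly(I:C) and 34 UMIs (96.7 CPM) after saline, with LPS over saline at 2.18 (1.33 to 3.58) and poly(I:C) over saline at 2.62 (1.64 to 4.23). P4hb, the other subunit, had 23 UMIs after LPS, 10 after poly(I:C) and 14 after saline, with LPS over saline at 3.29 (1.62 to 6.92). Both were thus higher after LPS. Colgalt2, which adds galactose to collagen lysines, had 14 UMIs after LPS, 1 after poly(I:C) and 104 after saline, and was lower, at 0.270 (0.143 to 0.474) for LPS and 0.0195 (0.000489 to 0.111) for poly(I:C) over saline. Over all barcodes, 0 of 23 measured genes were higher and 0 lower for LPS over saline and 0 of 23 measured genes were higher and 0 lower for poly(I:C) over saline, and for procollagen processing 0 of 7 measured genes were higher and 0 lower for LPS over saline, beside 3.24% and 2.85% of all measured genes for LPS over saline and 2.87% and 4.37% for poly(I:C) over saline.

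Among basement membrane partners, 2 of 10 measured genes were higher and 0 lower for LPS over saline, 1 of 10 measured genes was higher and 1 lower for poly(I:C) over saline, and 5 of 11 measured genes were higher and 0 lower for LPS over poly(I:C). For LPS over poly(I:C), 15.1% and 11.1% of all measured genes were higher and lower; for the comparisons with saline the shares are those given above for endothelial nuclei. Lamc1, the laminin gamma 1 chain, had 228 UMIs (1301 CPM) after LPS, 200 UMIs (1153 CPM) after poly(I:C) and 127 UMIs (361 CPM) after saline in endothelial nuclei, with LPS over saline at 3.60 (2.89 to 4.51) and poly(I:C) over saline at 3.19 (2.54 to 4.02). In mural nuclei it was also higher after both, at 3.10 (1.80 to 5.38) for LPS and 3.05 (1.76 to 5.31) for poly(I:C). Lama5, a laminin alpha chain, was at 2.61 (1.06 to 6.64) for LPS over saline in endothelial nuclei. Lamb2, a laminin beta chain, was at 0.444 (0.241 to 0.770) for poly(I:C) over saline. Fn1, fibronectin, was at 2.06 (1.52 to 2.81) for LPS over poly(I:C).

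Among collagen receptors in endothelial nuclei, 1 of 4 measured genes was higher and 0 lower for LPS over saline and 1 of 4 measured genes was higher and 0 lower for poly(I:C) over saline, too few genes to set against the shares of all measured genes given above for endothelial nuclei. Adgrg1, an adhesion receptor that binds type III collagen, had 33 UMIs after LPS, 25 after poly(I:C) and 5 after saline, with LPS over saline at 13.2 (5.13 to 43.4) and poly(I:C) over saline at 10.1 (3.81 to 33.9). In mural nuclei Itgb1, the common beta chain of collagen-binding integrins, had 31 UMIs after LPS, 20 after poly(I:C) and 26 after saline, with LPS over saline at 3.12 (1.79 to 5.47). Per UMI of the class, saline was the lowest library for both receptors.

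For collagen breakdown over all barcodes, 1 of 9 measured genes was higher and 0 lower for LPS over saline and 1 of 9 measured genes was higher and 2 lower for poly(I:C) over saline, against 3.24% and 2.85% of all measured genes for LPS and 2.87% and 4.37% for poly(I:C). Timp1, an inhibitor of matrix metalloproteinases, had 73 UMIs after LPS, 39 after poly(I:C) and 18 after saline, with LPS over saline at 4.84 (2.86 to 8.62) and poly(I:C) over saline at 3.61 (2.02 to 6.70). Mmp14, which cleaves collagen, had 18 UMIs after LPS, 4 after poly(I:C) and 24 after saline, with poly(I:C) over saline at 0.278 (0.0700 to 0.808). Timp4, another inhibitor, had 50 UMIs after LPS, 5 after poly(I:C) and 33 after saline, with poly(I:C) over saline at 0.252 (0.0769 to 0.650). Timp1 was thus higher after both stimuli and Mmp14 and Timp4 lower after poly(I:C). Sparc, a secreted protein that binds collagen, had 620 UMIs (20.8 CPM) after LPS, 577 UMIs (27.0 CPM) after poly(I:C) and 1773 UMIs (49.9 CPM) after saline. Per UMI, LPS over saline was 0.417 (0.380 to 0.458) for Sparc. The move of 0.93 on the log2 scale to UMIs per barcode puts this ratio within 2-fold. In mural nuclei LPS over saline was 0.877 (0.630 to 1.20) for Sparc.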

How the data were processed

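Nuclei of rat brain were sequenced as 3 single-nucleus libraries (LPS, poly(I:C) and saline, 1 each), grouped by the labelled treatment. The authors deposited raw UMI counts per gene and barcode; they were made with Cell Ranger 7.0.0 on mRatBN7.2, per the submitters' processing notes. The annotation release and the way cells were called are not given in the sources used here. No count was rescaled, corrected for free RNA or filtered in the main values.

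Member symbols, marker lists and pathway lists were chosen with earlier results of these data known, and the settings of the gates were set after seeing the data. A nucleus joined a class with at least 3 UMIs of at least 2 of its markers and a summed score of -log10 Poisson tail probabilities of at least 5 (2 for neurons). Nuclei of glial, vascular and epithelial classes could hold at most 50% of the library-wide share of Syt1, Snap25 and Rbfox3. Nuclei passing for 2 unlike classes were left out as possible doublets (137 nuclei after LPS, 71 after poly(I:C) and 98 after saline). Endothelial and mural did not count as unlike classes, so this step did not remove nuclei passing for both. No doublet caller was run. Of 203 marker symbols 190 were found; the 13 others were not analysed here, nor were 8 symbols of the member and pathway lists.

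UMIs were summed per class and library. With 1 library per treatment there were no replicates, so no p-value was computed: levels have exact Poisson intervals, shares Clopper-Pearson intervals and ratios exact conditional intervals, all at 95%. Subgroups of neurons were gated in the same way within their class. Named genes were those called at 2-fold with an interval that leaves out 1, or led by 1 class at 3-fold, among members with at least 30 UMIs over all barcodes and 10 in the class; smaller differences in the text were chosen after their values were seen. The list of the TGF-beta axis is not reported here. The step was tested on simulated data. Alternatives covered the scaling, count minimum, barcode filter, gate, free RNA and thinning. Python 3.11.15, NumPy 2.4.6, SciPy 1.17.1, pandas 2.3.3 and Matplotlib 3.10.9 were used.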

Additional observations from a re-analysis of the deposited data

Results flagged for a closer look

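Several members were called in opposite directions in different classes under the same comparison, each with an interval that leaves out 1. The difference between classes was not tested in any of these, each rests on 1 library per treatment, and several calls ended under an alternative. For LPS over saline, Col4a3 was 0.211 in endothelial nuclei, 0.344 in Slc17a7 excitatory neurons and 0.459 in inhibitory neurons (0.637 and 0.815 as UMIs per nucleus), but 7.84 in choroid plexus epithelium, on 9 UMIs after LPS and 1 after saline. Col4a6 was 0.0872 in endothelial nuclei and 9.82 in inhibitory neurons, and Col8a1 was 0.127 in mature oligodendrocytes and 2.01 in Slc17a7 excitatory neurons (0.734 and 1.5 in a gate of at least 5 marker UMIs). For poly(I:C) over saline, Col4a2 was 2.34 in endothelial nuclei and 0.137 in oligodendrocyte precursors (1.83 on even markers in the first and 0.599 without the limit on neuronal RNA in the second). Col25a1 was 3.24 in endothelial nuclei and 0.349 in mature oligodendrocytes, but both turned, to 0.985 without the limit on neuronal RNA and to 4.84 on even markers. For LPS over poly(I:C), Col4a3 was 3.09 in endothelial nuclei and 0.423 in inhibitory neurons (0.821 as UMIs per nucleus in the second), and Col25a1 was 0.206 in endothelial nuclei and 4.26 in microglia or macrophages. The endothelial value turned to 1.24 without the limit on neuronal RNA, and the microglial one was 1.42 without nuclei that held a Syt1 UMI.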

How the results depend on the processing

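No paired analysis was possible because each treatment has 1 library, and for the same reason no replicate could be left out. The alternatives without a limit on neuronal RNA, with a gate score of at least 8, per UMI of the endothelial markers, without endothelial nuclei holding a mural UMI, with haemoglobin genes as a class, with steady endothelial markers only, as UMIs per barcode or nucleus and thinned to 500 UMIs were chosen after seeing the data; settings in which a library had 0 UMIs gave no value. Called members over all barcodes numbered 4 for LPS over saline, 2 with at least 30 UMIs, 9 with each barcode weighted equally and 17 as UMIs per barcode; 5 for poly(I:C) over saline and 3 with at least 30 UMIs; and 3 for LPS over poly(I:C), 5 among barcodes with at least 500 genes and at most 5% mitochondrial UMIs, 7 with each barcode weighted equally and 17 as UMIs per barcode. The endothelial sum of Col4a1 and Col4a2 kept its direction under every alternative run: LPS over saline was 2.91 without the limit on neuronal RNA and 2.74 per UMI of the endothelial markers; poly(I:C) over saline was 1.52 with the 500-gene filter; LPS over poly(I:C) was 2.19 with that filter, 1.38 without the limit, 1.27 per marker UMI and 2.32 as UMIs per nucleus. In mural nuclei LPS over saline was 2.05 on odd markers; poly(I:C) over saline turned to 0.692 with the 500-gene filter, 0.661 with at least 5 marker UMIs and 0.713 on odd markers; LPS over poly(I:C) was 4.66 and 4.96 under the first 2 of these. Members led by 1 class numbered 8 on odd and 5 on even markers. Single genes that turned were Col25a1 in endothelial nuclei without the limit (0.985 for poly(I:C) over saline, 1.24 for LPS over poly(I:C)), Col25a1 in mature oligodendrocytes (LPS over saline 9.63 on even markers and 1.03 at score 8, poly(I:C) over saline 4.84 on even markers), mural Col4a3 (poly(I:C) over saline 2.14) and Col4a2 (LPS over saline 0.701) on odd markers, and Col28a1 in Slc17a7 excitatory neurons (LPS over poly(I:C) 1.41 with at least 5 marker UMIs, 1.48 on odd markers). The cause was not tested. Of 54 single-gene calls, 19 held under every alternative run and 35 ended under at least 1, each given beside its result above; these include Col25a1 in microglia or macrophages, Col16a1 in differentiating oligodendrocytes, Col4a2 and Col27a1 in precursors and the neuronal calls of Col4a3 and Col26a1. Endothelial Col4a3 stayed between 0.167 and 0.247 for LPS over saline and between 0.0451 and 0.0871 for poly(I:C) over saline. Depth limits fibroblast nuclei and every ratio on fewer than about 10 UMIs.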
